A study of Rattus norvegicus with 4 samples.

Results

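The genes described here are 37 genes of glycolysis and of the response to low oxygen, chosen by gene symbol from a fixed list: glucose transporters, the enzymes of each glycolytic step, lactate dehydrogenases and lactate carriers, regulators of glycolytic flux, the oxygen sensors, and targets of the hypoxia-inducible factors. All 37 had 1 row each among the 17899 rat genes of the expression table. The samples were 4 bulk RNA libraries of synovium, the lining tissue of the joint, from rats with osteoarthritis. Human AdMSCs had been injected in the case of AdMSC 1 and human SyMSCs in the case of SyMSC 1, names that the labels do not spell out, and tissue was collected a day later. PBS 1 and PBS 2 are the libraries given PBS, a salt buffer, at an interval not stated. Their titles also call them mix, which is not explained, and the series title speaks of before and after injection. The titles join AdMSC 1 with PBS 1 by the word Ad and SyMSC 1 with PBS 2 by the word Sy. The rats' strain, age and number, the way osteoarthritis was induced and the dose of cells are not stated. The human cells went into rats, so each recipient met cells of another species, and each cell source is represented by 1 library. Nothing in the labels places the libraries in separate animals, so the p-values speak for the spread between these libraries, which may be technical.

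Glycolysis splits glucose into pyruvate in the cytosol and yields ATP without oxygen; lactate dehydrogenase and lactate carriers dispose of the pyruvate when mitochondria do not take it. Cells sense oxygen through prolyl hydroxylases of the EGLN family, which mark the factor HIF-1 alpha for breakdown while oxygen is present. When oxygen is short, or when inflammatory signals raise the factor in leukocytes, it enters the nucleus, pairs with ARNT and binds DNA at a core of ACGTG or GCGTG near genes for glucose uptake, most glycolytic steps and lactate export. Inflamed synovium is a known site of low oxygen and of heavy glucose use by macrophages and neutrophils.

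Of the 34 members with an entry in a table of RefSeq promoters (build GRCr8; Slc2a3, Pgk1 and Ndrg1 had none), 23 held ACGTG on either strand between 250 bases before and 50 bases after an annotated start. The sequences below are the 250 bases before the start of the members with the largest called rises that hold these letters there, printed 5′ to 3′ on the gene's strand to show the letters and where they lie. The capitals mark ACGTG read on either strand, so that CACGT is the same core on the opposite strand.
Hk3: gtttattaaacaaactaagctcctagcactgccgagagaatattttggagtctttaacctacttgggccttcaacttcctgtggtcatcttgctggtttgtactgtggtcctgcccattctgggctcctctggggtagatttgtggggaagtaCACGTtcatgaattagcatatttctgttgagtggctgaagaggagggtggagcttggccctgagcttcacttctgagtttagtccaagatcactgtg
Slc2a1: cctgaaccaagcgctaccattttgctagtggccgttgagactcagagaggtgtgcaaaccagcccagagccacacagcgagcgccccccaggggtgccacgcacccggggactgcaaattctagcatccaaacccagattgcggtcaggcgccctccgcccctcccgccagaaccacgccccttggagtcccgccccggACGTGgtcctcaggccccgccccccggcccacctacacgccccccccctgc
Pfkfb3: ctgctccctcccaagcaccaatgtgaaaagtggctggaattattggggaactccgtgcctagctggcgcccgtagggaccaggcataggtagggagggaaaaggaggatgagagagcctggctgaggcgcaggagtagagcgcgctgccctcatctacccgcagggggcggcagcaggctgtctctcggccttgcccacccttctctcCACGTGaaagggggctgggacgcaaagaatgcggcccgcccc
Ldha: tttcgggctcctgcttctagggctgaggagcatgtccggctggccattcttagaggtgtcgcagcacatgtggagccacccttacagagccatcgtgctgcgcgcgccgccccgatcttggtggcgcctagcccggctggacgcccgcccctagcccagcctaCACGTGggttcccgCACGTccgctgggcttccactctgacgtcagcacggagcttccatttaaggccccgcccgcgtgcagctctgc
Pgam1: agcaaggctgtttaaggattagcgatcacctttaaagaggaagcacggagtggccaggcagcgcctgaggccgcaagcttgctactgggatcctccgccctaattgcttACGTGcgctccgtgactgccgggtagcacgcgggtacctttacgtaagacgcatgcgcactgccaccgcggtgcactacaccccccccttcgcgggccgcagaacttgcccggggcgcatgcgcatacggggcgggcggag
All of these lie on the plus strand, at chr17:9604781-9605030 for Hk3, chr5:138002272-138002521 for Slc2a1, chr17:71944683-71944932 for Pfkfb3, chr1:106507842-106508091 for Ldha, chr1:250672902-250673151 for Pgam1. Hk3 carries 1 core, whose first base is at -97 from the start, and Slc2a1 carries 1 at -51. Pfkfb3 and Ldha each hold CACGTG, a palindrome that contains ACGTG on both strands and is also the E-box letter string; it begins at -42 in Pfkfb3 and at -87 in Ldha, where a further core follows at -73. Pgam1 has its core at -141. Eno1, the next by size of rise, had its core at 39 after the start and is not printed.

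As windows, 23 of 39 member windows (59.0%) held ACGTG on either strand, against 24.4% of 11861 windows of the tested genes and 19.3% of all 33469 windows of the table. The member share was thus above that of the tested genes, with no test made. Outside CACGTG, 53.8% of member windows and 17.2% of windows of the tested genes held it. GCGTG stood in 46.2% of member windows and 47.4% of windows of the tested genes. The median GC content was 63.3% over member windows and 60.3% over windows of the tested genes. ACGTG did not divide the members by their change: 17 of 26 genes that rose held it in a window, and so did 6 of 8 that did not rise. CACGTG stood in a window of 6 of the 26 and 0 of the 8, and of 9.78% of the tested genes, with no test made. Egln3, Slc16a3 and Hk2, with some of the largest rises, had neither ACGTG nor GCGTG in these windows. A match of letters is a description and no evidence of binding.

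Across the table, the values were TPM, shares of each library's transcripts corrected for transcript length, so levels can be compared between genes, but TPM keeps no read depth and allows no counting interval. Per library, 12582 to 13155 genes reached 1 TPM. The injected libraries were compared with the PBS libraries by limma on log2(TPM + 1) over the 13371 genes that reached 1 TPM in 2 or more libraries, with Benjamini-Hochberg adjustment over all of them. Each side has n = 2 libraries. The injected side joins 1 library of each cell source, so its spread includes any difference between the sources. A log2 change refers to TPM + 1, so for low genes it is smaller than the change in TPM, and a fold in words is the ratio of mean TPM. Of the 37 members 36 were tested, each at 1 TPM or more in every library; Slc2a3 was not tested.

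Transcripts of most of these genes were higher after injection of human cells. Of the 36 tested members 28 rose, 3 fell and 5 did not pass an adjusted p of 0.05 (limma). Over all tested genes 48.4% passed, with 23.7% higher and 24.7% lower. The median log2 change was 1.20 over the tested members and 0.00087 over all tested genes. Of the 28 members that rose, 21 had a log2 change of at least 1 and 5 of at least 3: Slc16a3, Egln3, Hk3, Slc2a1 and Pfkfb3. In 34 of the 36 tested members the libraries of the 2 sides did not overlap, as in 78.8% of all tested genes. Those that fell were Ldhb, Pfkm and P4ha2, and those that did not pass were Hk1, Pfkp, Aldoc, Eno2 and Car9. The members had been chosen with earlier results of these data known, so the counts describe them and are no test of the group.

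**Figure D1:**
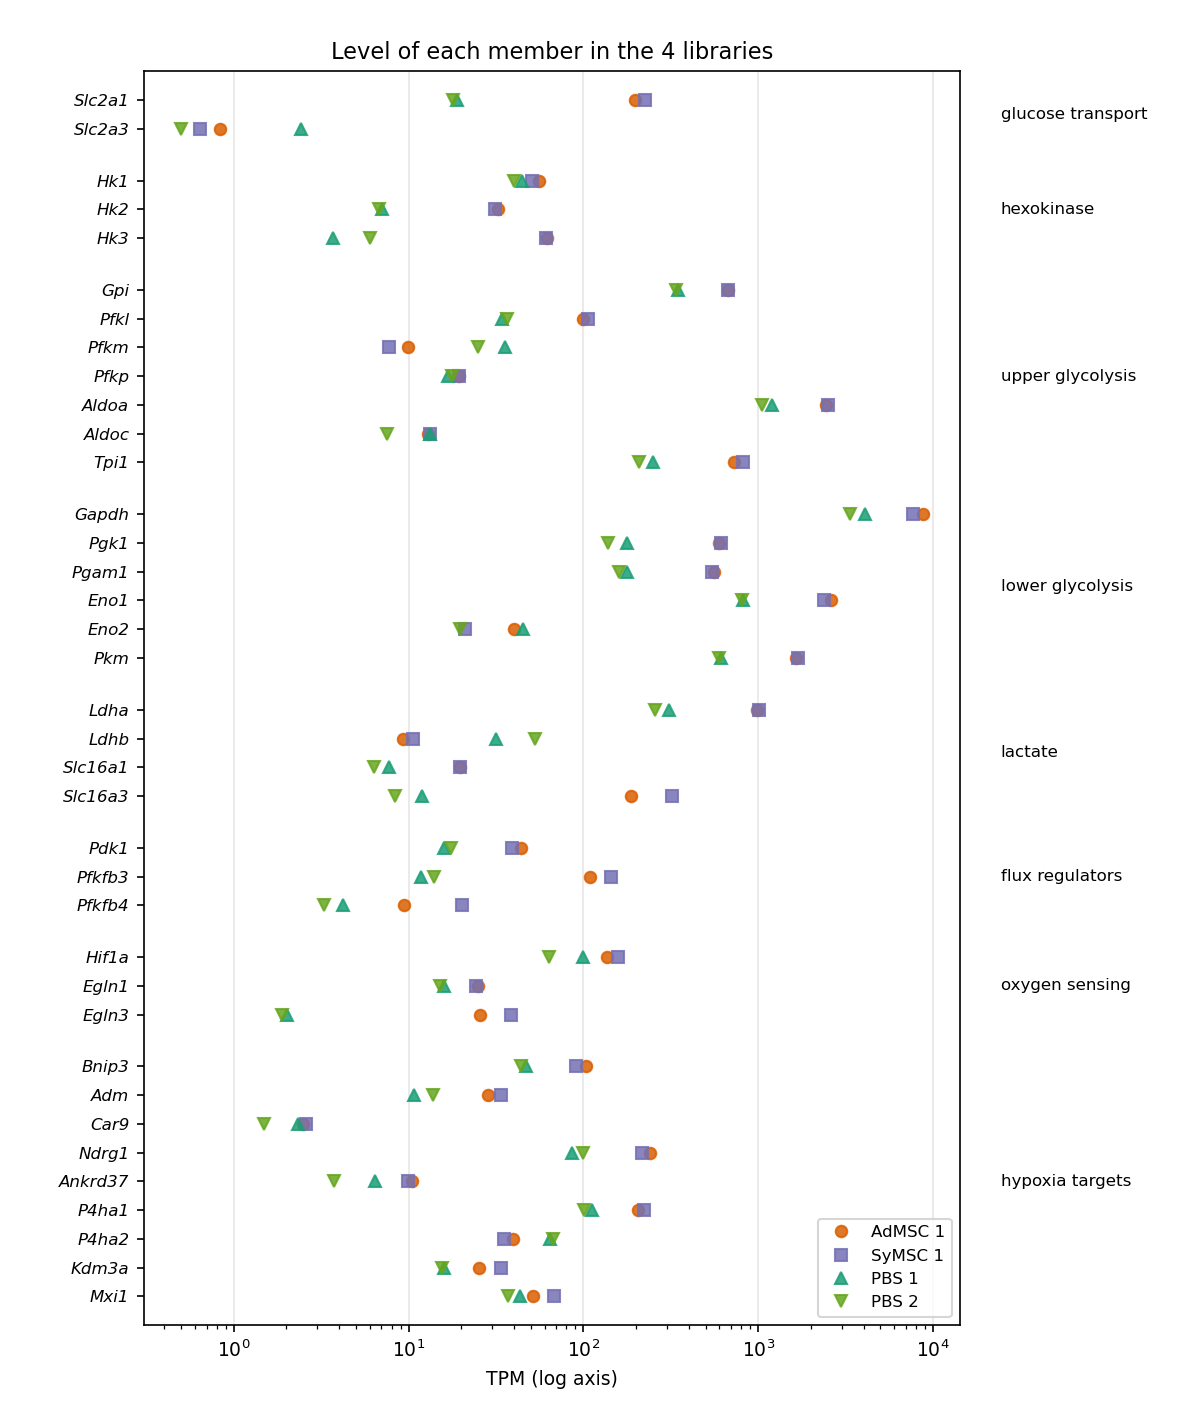
TPM of each member (log axis) in the 4 libraries, 1 point per library, ordered by role. For 34 of the 37 members both injected libraries lie on the same side of both PBS libraries, while Slc2a3, Aldoc and Eno2 overlap. The libraries of the 2 sides also do not overlap in 78.8% of all tested genes.

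Summed over all 37 members, the transcripts came to 20766 TPM (AdMSC 1) and 19947 TPM (SyMSC 1) after injection, and to 8778 TPM (PBS 1) and 7670 TPM (PBS 2) with buffer, that is 2.08%, 1.99%, 0.878% and 0.767% of each library. The sums of the injected libraries lay above those of the PBS libraries without overlap, at 2.48 times the PBS mean. The 16 enzyme genes from hexokinase to pyruvate kinase made up most of this, with 18316 and 17219 TPM after injection and 7857 and 6828 TPM with PBS. Gapdh alone was the most abundant member in each library.

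Marker lists of the cells that synovium can hold also differed between the sides. Their counts stand beside 23.7% of all tested genes called higher and 24.7% called lower. The summed level of 12 monocyte and macrophage markers was 32509 and 41861 TPM after injection and 11792 and 13042 TPM with PBS. Of these 11 rose, and Lyz2 and Fcer1g were the most abundant, with Lyz2 making up most of the sum in each library. The macrophage gene Adgre1 overlapped and did not pass, at 14.9 and 19.5 TPM after injection and 16.9 and 18.7 TPM with PBS. The 12 neutrophil markers summed to 2302 and 4071 TPM after injection and to 361 and 103 TPM with PBS, with 5 of 11 tested higher and S100a9 and S100a8 leading. The sums of both leukocyte lists were thus higher in each injected library, but the neutrophil markers did not move as one. Csf3r, Cxcr2, Il1r2, S100a8 and S100a9 rose, while the granule genes Camp, Ngp, Mpo, Elane and Retnlg overlapped between the sides and did not pass. Mmp8, another granule gene, did not pass either but did not overlap. It stood at 16.39 and 81.25 TPM in AdMSC 1 and SyMSC 1 and at 7.68 and 2.25 TPM in PBS 1 and PBS 2. Unlike Mmp8, the granule genes that overlapped were lower in AdMSC 1 than in PBS 1, Ngp for example at 10.55 against 80.78 TPM and Camp at 3.92 against 24.44 TPM. They were higher in SyMSC 1 than in PBS 2, Ngp at 32.25 against 5.97 TPM and Camp at 14.21 against 4.0 TPM. The genes named here were chosen after their values were seen. The 11 synovial fibroblast markers, led by Col3a1 and Col1a1, summed to 17039 and 11602 TPM after injection and 38542 and 31398 TPM with PBS, with 7 lower and 1 higher. The lining fibroblast gene Prg4 was present in every library, between 2448 and 4192 TPM. Fibroblast transcripts as summed here were lower after injection, while Prg4 did not pass the test. Clic5 had the largest fall of the list, at 4.10 and 4.12 TPM after injection and 63.3 and 73.5 TPM with PBS (limma log2 change -3.76, adjusted p = 0.000161). Has2 was the 1 that rose (log2 change 1.88). Single genes of this list thus do not speak for a layer of the synovium. The 8 endothelial markers, led by Emcn and Pecam1, summed to 267 and 224 TPM against 687 and 760.1 TPM, with 7 lower. The 14 skeletal muscle markers, led by Acta1 and Mylpf, summed to 159 and 214 TPM against 2356 and 859.9 TPM. Of 12 tested, 6 were lower, while Acta1 and Mylpf themselves did not pass. The untested Myh2 and Myh7 were higher in both injected libraries, at no more than 1.88 TPM in any library. The 6 adipocyte markers, led by Fabp4 and Cfd, summed to 446 and 570.03 TPM against 785 and 2403 TPM, with 1 of 5 tested lower. The sum of each of these lists of resident cells was lower in both injected libraries. The muscle and adipocyte sums were also uneven between the PBS libraries. The erythroid markers, led by Hba1 and Hbb, overlapped, at 5310 and 11238 TPM against 21706 and 7666 TPM, and none of 6 tested was called. No marker in the table was at 0 in every library. The part of these shifts in the changes of the members was not tested, and in bulk tissue fewer cells of a type and less RNA per cell cannot be told apart.

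**Figure D2:**
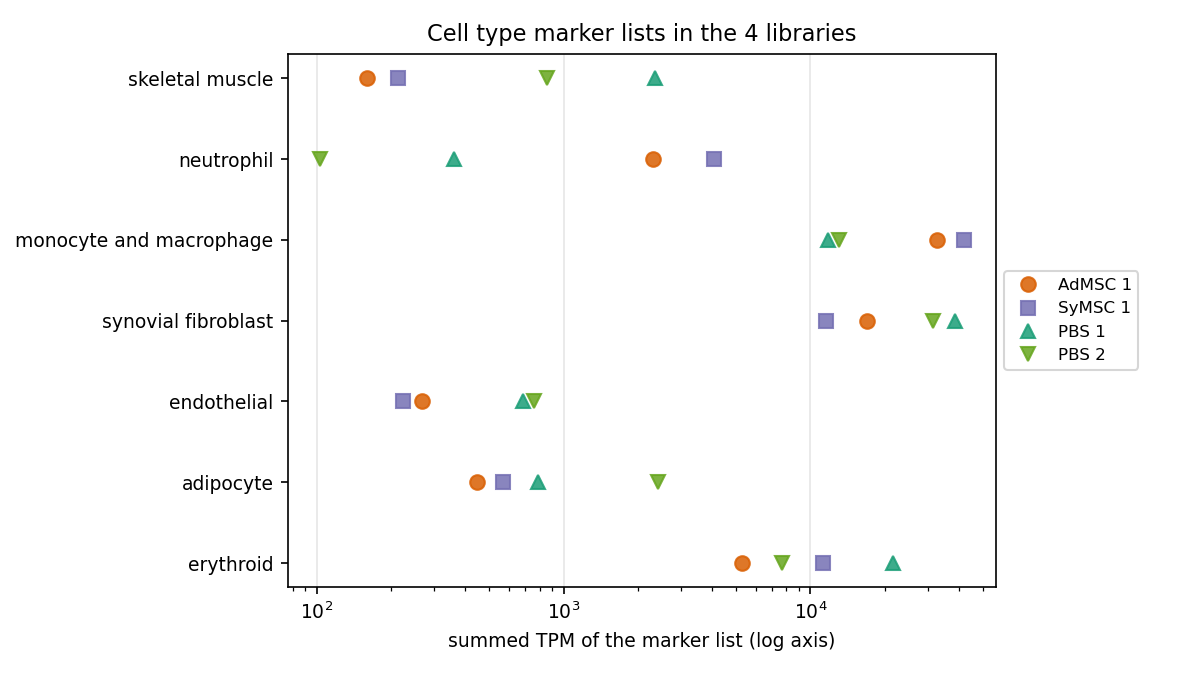
Summed TPM (log axis) of the marker lists of 7 cell types, 1 point per library. Monocyte and macrophage and neutrophil sums are higher in both injected libraries than in both PBS libraries, fibroblast, endothelial, muscle and adipocyte sums are lower, and erythroid sums overlap.

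Glucose enters cells through the facilitative transporters GLUT1 (Slc2a1) and GLUT3 (Slc2a3). Slc2a1 (gene ID 24778) stood at 196 TPM (AdMSC 1) and 226 TPM (SyMSC 1) after injection, and at 18.9 TPM (PBS 1) and 18.0 TPM (PBS 2) with buffer. Both injected libraries lay far above both PBS libraries, which were almost equal, and the mean was 11.4 times higher (limma log2 change 3.44 ± 0.13 SE, adjusted p = 0.000161). Slc2a3 (gene ID 25551), a high-affinity transporter known from neurons and leukocytes, was scarce, at 0.83 TPM (AdMSC 1) and 0.64 TPM (SyMSC 1) after injection, and at 2.41 TPM (PBS 1) and 0.50 TPM (PBS 2) with buffer. Only PBS 1 reached 1 TPM, the groups overlapped and no change could be read from it.

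Hexokinases trap glucose as glucose 6-phosphate, the first step of the pathway inside the cell. The widely expressed form Hk1 (gene ID 25058) stood at 55.7 TPM (AdMSC 1) and 50.8 TPM (SyMSC 1) after injection, and at 44.7 TPM (PBS 1) and 40.0 TPM (PBS 2) with buffer, and did not pass (log2 change 0.33, 95% interval 0.01 to 0.64, limma adjusted p = 0.0833). With median-ratio (RLE) scaling limma called it higher (log2 change 0.37, adjusted p = 0.0385). The inducible form Hk2 (gene ID 25059) stood at 32.5, 31.3, 7.04 and 6.79 TPM in AdMSC 1, SyMSC 1, PBS 1 and PBS 2. The libraries of each side lay close together, 4.61 times apart in the mean (limma log2 change 2.05 ± 0.13 SE, adjusted p = 0.000308). Hk3 (gene ID 25060), a form found mainly in myeloid leukocytes, stood at 62.1, 61.4, 3.71 and 5.98 TPM in the same order. It rose 12.7 times (limma log2 change 3.45 ± 0.21 SE, adjusted p = 0.000278) and passed from the least abundant hexokinase in both PBS libraries to the most abundant one in both injected libraries. Of the summed hexokinase TPM, Hk3 made up 41.3% and 42.8% in AdMSC 1 and SyMSC 1 and 6.70% and 11.3% in PBS 1 and PBS 2. Hk1 made up 37.1% and 35.4% after injection and 80.6% and 75.8% with PBS.

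The next steps rearrange and phosphorylate the sugar and cut it into triose phosphates. Glucose phosphate isomerase, Gpi (gene ID 292804), stood at 667 and 674 TPM in AdMSC 1 and SyMSC 1 and 347 and 338 TPM in PBS 1 and PBS 2, the smallest rise among the called enzymes of the pathway (limma log2 change 0.97 ± 0.12 SE, adjusted p = 0.00156). Phosphofructokinase, the main control point, has liver, muscle and platelet subunits, named for the tissues in which each is abundant. The liver subunit Pfkl (gene ID 25741) stood at 99.6 and 106 TPM after injection and 34.3 and 36.4 TPM with PBS, and rose (limma log2 change 1.52 ± 0.12 SE, adjusted p = 0.000497). The muscle subunit Pfkm (gene ID 65152) stood at 9.92 and 7.69 TPM after injection and 35.8 and 24.9 TPM with PBS, and fell (limma log2 change -1.66 ± 0.22 SE, adjusted p = 0.00193). The platelet subunit Pfkp (gene ID 60416) lay between 16.8 and 19.4 TPM in all 4 libraries and did not pass (log2 change 0.16, 95% interval -0.15 to 0.48, limma adjusted p = 0.324). Pfkl thus made up 77.3% and 79.7% of the summed subunit TPM after injection and 39.5% and 46.1% with PBS, and Pfkm 7.70% and 5.76% against 41.2% and 31.5%. The summed skeletal muscle markers, given above, were lower in the same libraries as Pfkm and ranked PBS 1 above PBS 2 as it did. Their part in the fall was not tested.

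Aldolase cuts fructose 1,6-bisphosphate, and triose phosphate isomerase makes its products interchangeable. Aldoa (gene ID 24189), the main form, stood at 2433 and 2517 TPM in AdMSC 1 and SyMSC 1 and 1199 and 1052 TPM in PBS 1 and PBS 2, without overlap (limma log2 change 1.14 ± 0.13 SE, adjusted p = 0.00125). Aldoc (gene ID 24191), a form best known from brain, stood at 12.99, 13.2, 13.3 and 7.52 TPM in AdMSC 1, SyMSC 1, PBS 1 and PBS 2. Only PBS 2 was low, the groups overlapped and the gene did not pass (log2 change 0.35, 95% interval -0.27 to 0.98, limma adjusted p = 0.292). Without PBS 1 limma called Aldoc higher (log2 change 0.73, adjusted p = 0.0290), and without PBS 2 its change was -0.02. Tpi1 (gene ID 24849) stood at 723 and 815 TPM after injection and 249 and 208 TPM with PBS, and rose 3.36 times (limma log2 change 1.75 ± 0.15 SE, adjusted p = 0.000545).

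The lower steps oxidise the triose and return ATP. Gapdh (gene ID 24383), the dehydrogenase whose transcript is often used as a reference in expression assays, stood at 8743 TPM (AdMSC 1) and 7691 TPM (SyMSC 1) after injection, and at 4073 TPM (PBS 1) and 3367 TPM (PBS 2) with buffer. It differed 2.21 times between the means (limma log2 change 1.15 ± 0.15 SE, adjusted p = 0.00199), with no overlap. The first ATP-making kinase, Pgk1 (gene ID 24644), stood at 598 and 611 TPM after injection and 179 and 139 TPM with PBS, a rise of 3.81 times (limma log2 change 1.93 ± 0.16 SE, adjusted p = 0.000499). Both genes were higher in each injected library than in each PBS library. The mutase gene Pgam1 (gene ID 24642) stood at 557 and 542 TPM against 177 and 159.9 TPM (limma log2 change 1.70 ± 0.12 SE, adjusted p = 0.000409). Enolase 1, Eno1 (gene ID 24333), stood at 2609 and 2368 TPM against 823 and 806 TPM (limma log2 change 1.61 ± 0.12 SE, adjusted p = 0.000452). Pyruvate kinase, Pkm (gene ID 25630), which makes the pyruvate and whose M1 and M2 splice forms share this row, stood at 1653 and 1691 TPM against 609 and 599 TPM (limma log2 change 1.47 ± 0.12 SE, adjusted p = 0.000492). These 5 genes rose without overlap of the libraries, and 78.8% of all tested genes showed no overlap either. Gapdh and other abundant glycolytic genes have processed pseudogenes to which reads can be assigned, so their levels are uncertain. Whether reads of the injected human cells were counted at these and other conserved members is not known, and their part in the rises was not tested.

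The neuronal enolase Eno2 (gene ID 24334) was the exception in the lower steps. It stood at 40.1 TPM in AdMSC 1 and 45.3 in PBS 1 but at 21.0 in SyMSC 1 and 19.6 in PBS 2, so that its levels differed by the title word and not by injection. It did not pass (log2 change -0.04, 95% interval -1.67 to 1.60, limma adjusted p = 0.962), and a change of over 2-fold either way lies within that interval. The direction of this value turned under RLE scaling and without PBS 1 or SyMSC 1.

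**Figure D3:**
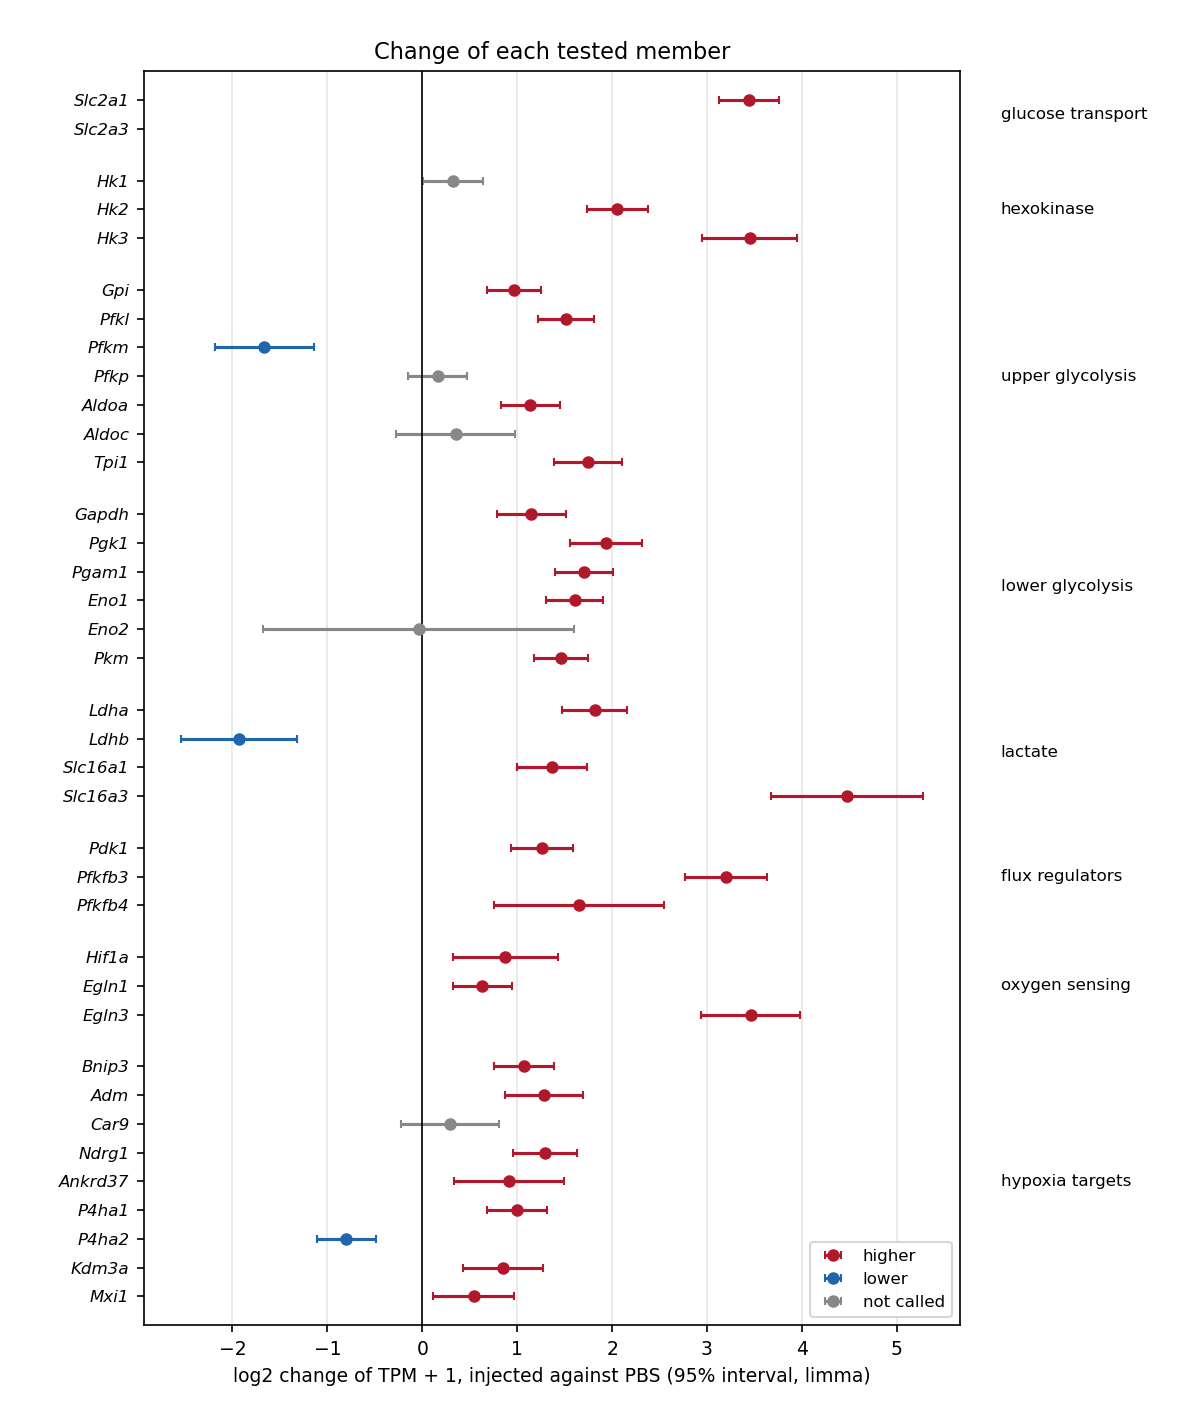
Log2 change of TPM + 1, injected against PBS, with the 95% interval from limma, for the 36 tested members; the untested Slc2a3 has no point. The 28 called rises lie to the right of 0, Ldhb, Pfkm and P4ha2 lie to the left, and the interval of Eno2 runs from -1.67 to 1.60.

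Lactate dehydrogenase interconverts pyruvate and lactate, with the A subunit favouring lactate production and the B subunit known from heart and other oxidative tissue. Ldha (gene ID 24533) stood at 982 TPM (AdMSC 1) and 1012 TPM (SyMSC 1) after injection, and at 310.3 TPM (PBS 1) and 257 TPM (PBS 2) with buffer, and rose 3.52 times (limma log2 change 1.82 ± 0.14 SE, adjusted p = 0.000462). Ldhb (gene ID 24534) went the other way, with 9.33 and 10.6 TPM after injection and 31.7 and 52.6 TPM with PBS, a level 4.22 times higher with PBS (limma log2 change -1.93 ± 0.25 SE, adjusted p = 0.00213). The Ldha level was 105 and 95.1 times the Ldhb level in AdMSC 1 and SyMSC 1 and 9.80 and 4.88 times in PBS 1 and PBS 2. Since this ratio is taken within a library, it does not depend on how libraries are scaled to each other. Ldhb was higher in PBS 2 than in PBS 1, as the summed adipocyte markers were and as the summed skeletal muscle markers were not. The part of either list in the fall of Ldhb was not tested.

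Lactate leaves the cell with a proton through monocarboxylate transporters. MCT4, Slc16a3 (gene ID 80878), which is adapted to export, had the largest rise of the 36 tested members. It stood at 186 TPM (AdMSC 1) and 319 TPM (SyMSC 1) after injection, and at 11.9 TPM (PBS 1) and 8.37 TPM (PBS 2) with buffer, 24.9 times higher in the mean (limma log2 change 4.48 ± 0.31 SE, adjusted p = 0.000723). The injected libraries differed from each other by 1.72 times, far less than either differed from PBS. MCT1, Slc16a1 (gene ID 25027), which carries lactate in both directions, stood at 19.6 and 19.8 TPM after injection and 7.74 and 6.35 TPM in the PBS libraries (limma log2 change 1.37 ± 0.15 SE, adjusted p = 0.0012). Slc16a3 was 90.5% and 94.2% of the pair's summed TPM in AdMSC 1 and SyMSC 1 and 60.6% and 56.9% in PBS 1 and PBS 2.

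The shares of the isoforms within these families differed without overlap between the sides, as the levels of 78.8% of all tested genes did. In a family of 2 genes the shares are complements, so they make 1 difference. The levels of Slc2a3, Aldoc and Eno2 themselves overlapped, and the share of Slc2a3 rests on 0.50 to 2.41 TPM. With 2 libraries against 2, an exact two-sided permutation test cannot go below p = 0.333, so no p is given for a share. The Aldoa and Eno1 forms made up nearly all of their families in each library, so the shares of Aldoc and Eno2 are small numbers.

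**Figure D4:**
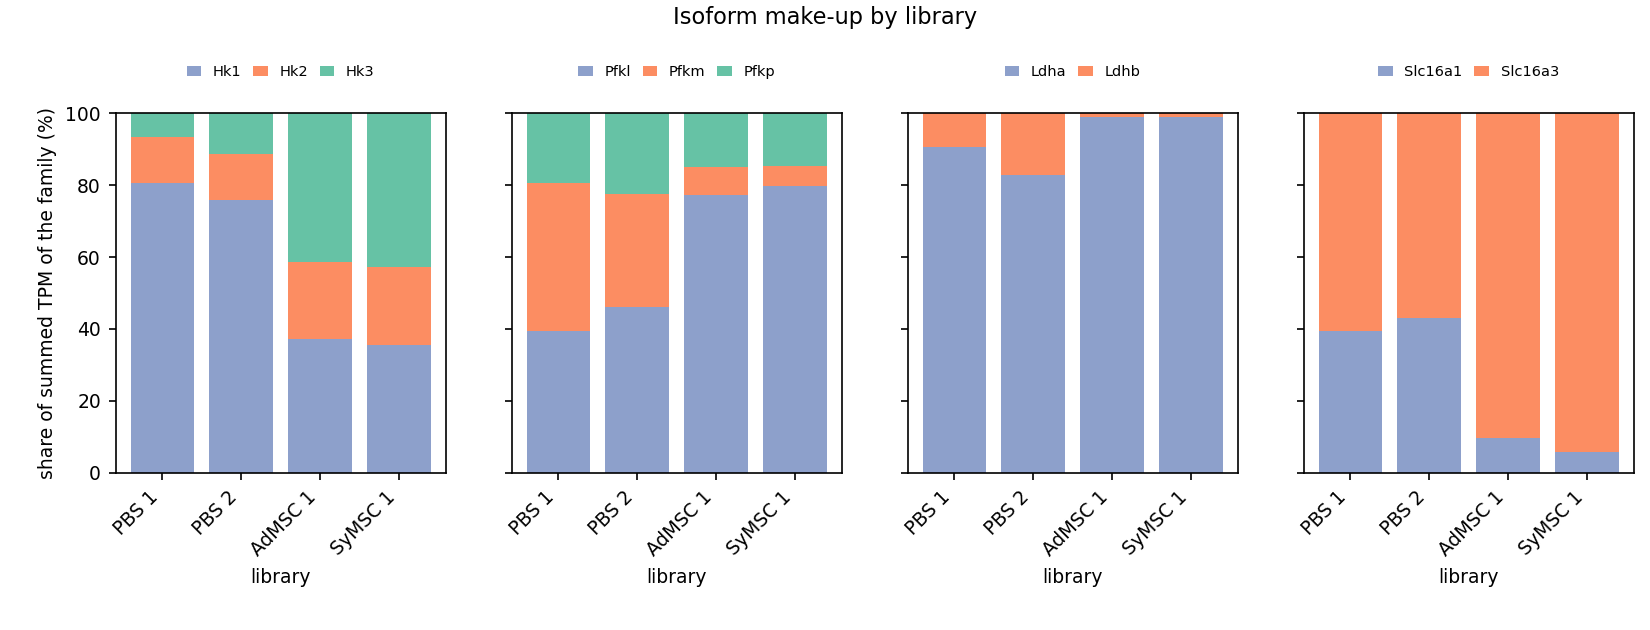
Share (%) of each isoform in the summed TPM of its family, 1 bar per library, for hexokinases, phosphofructokinase subunits, lactate dehydrogenase subunits and lactate carriers. Hk3, Pfkl and Slc16a3 take larger shares, and Hk1, Pfkm, Ldhb and Slc16a1 smaller ones, in both injected libraries than in both PBS libraries.

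A group of 3 genes sets the flow into and out of the pathway. Pfkfb3 (gene ID 117276) makes fructose 2,6-bisphosphate, the strongest activator of phosphofructokinase, and stood at 109 TPM (AdMSC 1) and 145 TPM (SyMSC 1) after injection, and at 11.8 TPM (PBS 1) and 13.9 TPM (PBS 2) with buffer. It rose 9.88 times (limma log2 change 3.20 ± 0.18 SE, adjusted p = 0.000246). Its relative Pfkfb4 (gene ID 54283) was lower and less even, at 9.46 and 20.1 TPM after injection and 4.23 and 3.30 TPM in the PBS libraries (limma log2 change 1.65 ± 0.35 SE, adjusted p = 0.0144). Its limma call ended without PBS 1 (log2 change 1.79, adjusted p = 0.0745) or PBS 2 (1.51, adjusted p = 0.109). Pdk1 (gene ID 116551), a kinase that switches off pyruvate dehydrogenase and so keeps pyruvate from the mitochondria, stood at 43.7 and 39.2 TPM against 16.0 and 17.4 TPM (limma log2 change 1.26 ± 0.13 SE, adjusted p = 0.00104).

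The oxygen sensing genes rose to different degrees. Hif1a (gene ID 29560), whose protein is controlled mainly by its breakdown, stood at 136 TPM (AdMSC 1) and 158 TPM (SyMSC 1) after injection, and at 99.02 TPM (PBS 1) and 63.8 TPM (PBS 2) with buffer (limma log2 change 0.88 ± 0.22 SE, adjusted p = 0.0211). PBS 1 lay nearer to AdMSC 1 than to PBS 2 on the log scale, and the call ended without AdMSC 1 (adjusted p = 0.0684), SyMSC 1 (0.119) or PBS 2 (0.0746) in limma, where the change without PBS 2 was 0.56, and with no filter on low values (0.0523). The main oxygen sensor Egln1 (gene ID 308913), or PHD2, stood at 24.9 and 24.4 TPM against 15.9 and 15.2 TPM (limma log2 change 0.63 ± 0.13 SE, adjusted p = 0.00854). Egln3 (gene ID 54702), or PHD3, itself a well-known target of HIF-1, stood at 25.7 and 38.4 TPM against 2.02 and 1.88 TPM. It rose 16.4 times in the mean (limma log2 change 3.46 ± 0.22 SE, adjusted p = 0.0003), so that the Egln3 level passed that of Egln1 in SyMSC 1 and AdMSC 1 while it was far below it in both PBS libraries.

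Of the 9 other targets of the hypoxia factors, 7 rose, 1 fell and 1 did not pass. Over all tested genes, 23.7% were called higher and 24.7% lower. Bnip3 (gene ID 84480), a mitophagy receptor, stood at 103 and 91.05 TPM after injection and 47.1 and 43.9 TPM in the PBS libraries (limma log2 change 1.07 ± 0.13 SE, adjusted p = 0.00154). Ndrg1 (gene ID 299923), a stress-responsive gene, stood at 241 and 218 TPM against 86.1 and 99.7 TPM (limma log2 change 1.29 ± 0.14 SE, adjusted p = 0.00103). Adm (gene ID 25026), which encodes the vasodilator adrenomedullin, stood at 28.5 and 34.0 TPM against 10.8 and 13.7 TPM (limma log2 change 1.28 ± 0.17 SE, adjusted p = 0.00208). The histone demethylase gene Kdm3a (gene ID 312440) stood at 25.1 and 34.0 TPM against 16.0 and 15.6 TPM (limma log2 change 0.85 ± 0.17 SE, adjusted p = 0.009). These 4 genes were higher in both injected libraries than in both PBS libraries. The 2 sides did not overlap in 78.8% of all tested genes.

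Ankrd37 and Mxi1 rose by less certain amounts. Ankrd37 (gene ID 361149), an ankyrin repeat gene, stood at 10.5 and 9.91 TPM after injection and 6.42 and 3.75 TPM in the PBS libraries (limma log2 change 0.92 ± 0.24 SE, adjusted p = 0.0214). In limma it was no longer called without AdMSC 1 (adjusted p = 0.0810), SyMSC 1 (0.0679) or PBS 2 (0.0728), where the change without PBS 2 was 0.59, or with no filter on low values (0.0514). Mxi1 (gene ID 25701), which encodes an antagonist of MYC, stood at 51.3 and 67.8 TPM against 43.5 and 37.2 TPM (limma log2 change 0.54 ± 0.17 SE, adjusted p = 0.0435). It was no longer called by limma without PBS 1 (adjusted p = 0.0591), SyMSC 1 (0.154; log2 change 0.34) or PBS 2 (0.189), with upper-quartile scaling (0.0704), with no filter (0.0829) or with the title word as a block (0.0723). Car9 (gene ID 313495), carbonic anhydrase IX, an acid-handling enzyme often used as a hypoxia marker in tumours, was low in every library, at 2.48 and 2.59 TPM against 2.34 and 1.49 TPM, and did not pass (log2 change 0.29, 95% interval -0.22 to 0.81, limma adjusted p = 0.291).

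P4ha1 and P4ha2 encode alternative catalytic subunits of the enzyme that hydroxylates proline in collagen, and they moved in opposite directions. P4ha1 (gene ID 64475) stood at 206 and 222 TPM after injection and 112 and 101 TPM in the PBS libraries (limma log2 change 0.9988 ± 0.13 SE, adjusted p = 0.00187). P4ha2 (gene ID 360526) stood at 39.6 and 35.2 TPM after injection and 64.2 and 67.3 TPM in the PBS libraries (limma log2 change -0.80 ± 0.13 SE, adjusted p = 0.00381). The summed fibroblast markers, given above, were lower in the same libraries as P4ha2, and their part in its fall was not tested.

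Each cell source was also set against the PBS library of its title word, with 1 library a side and therefore no test. A gene was counted when TPM + 1 differed at least 2-fold and the higher value was at least 5 TPM. Between AdMSC 1 and PBS 1, 21 of 35 eligible members were higher, against 11.1% of all eligible genes, and 2 were lower, against 12.3%. Between SyMSC 1 and PBS 2, 25 of 35 were higher, against 12.9%, and 2 were lower, against 15.1%. The lower members were Ldhb and Pfkm in each pair. Ankrd37, Hif1a, Kdm3a and P4ha1 passed this fold in the Sy pair alone, where their log2 ratios were 1.20, 1.30, 1.08 and 1.13, beside 0.63, 0.45, 0.62 and 0.87 in the Ad pair; whether the pairs differ could not be tested. The order of the counts turned with the PBS library used: against PBS 2, AdMSC 1 had 24 members higher and 2 lower, and against PBS 1, SyMSC 1 had 20 higher and 3 lower. Over the 37 members, 31 were higher in both pairs, 3 were lower in both and 3 went opposite ways. For this count and for the exchanged PBS libraries, no share over all genes is at hand.

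**Figure D5:**
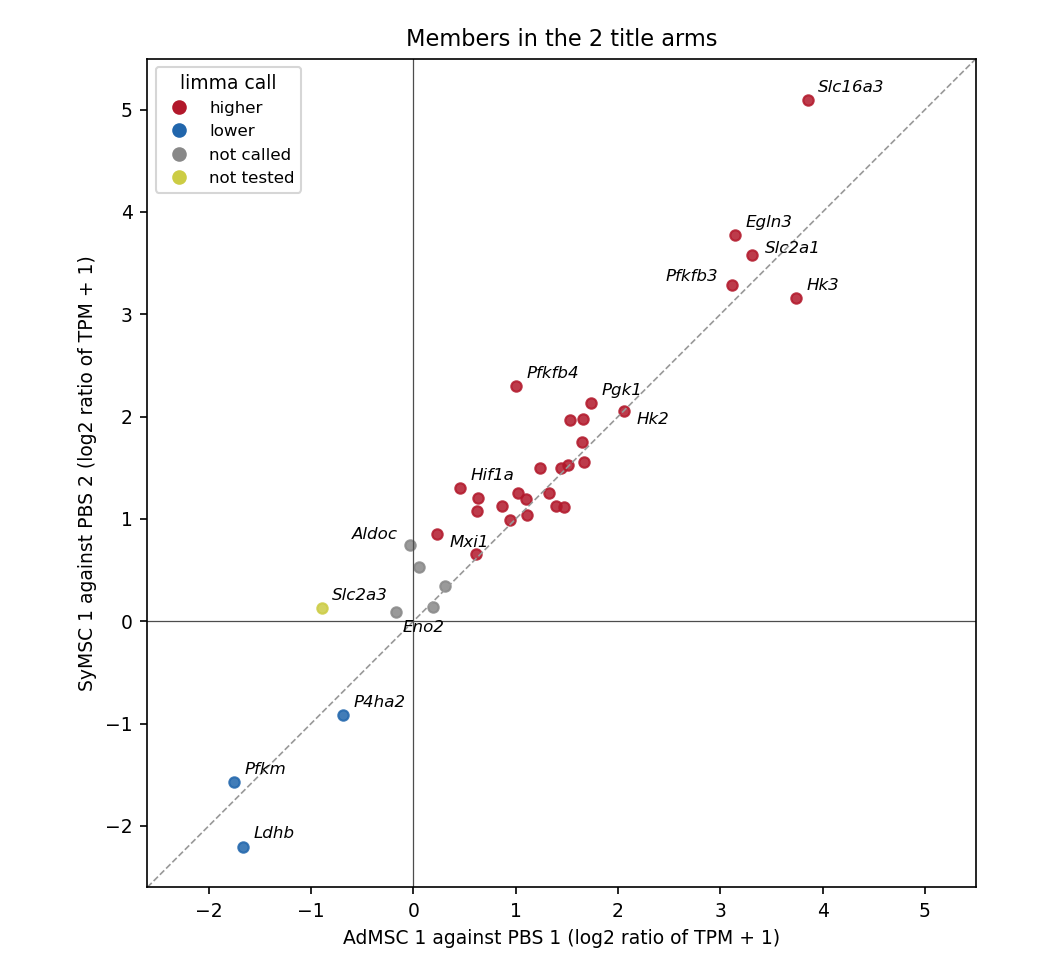
Log2 ratio of TPM + 1 for AdMSC 1 against PBS 1 (horizontal axis) and SyMSC 1 against PBS 2 (vertical axis), 1 point per member, coloured by its limma call; the dashed line marks equal ratios. Slc16a3 lies at 3.85 and 5.10, Pfkfb4 at 1.0 and 2.30, Ldhb at -1.66 and -2.20, and Slc2a3, Aldoc and Eno2 lie where the ratios have opposite signs.

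The libraries of the 2 cell sources were close to each other for most members. Between SyMSC 1 and AdMSC 1, only Pfkfb4 of the 35 eligible members passed the 2-fold mark (2.13 times higher in SyMSC 1), against 1.48% of all eligible genes, and none was lower, against 0.732%. At a mark of 1.5-fold these were 3 members, Pfkfb4 and Slc16a3 higher and Eno2 lower in SyMSC 1, with no share over all genes at hand. Most of the enzymes were nearly equal: Gpi differed 1.01 times, Pkm 1.02 times, Pgk1 1.02 times and Ldha 1.03 times between these libraries. Others lay further apart, the level in SyMSC 1 being 0.775 times that in AdMSC 1 for Pfkm, 0.880 times for Gapdh and 1.13 times for Tpi1. Between the PBS libraries, the level in PBS 1 was from 0.602 times (Ldhb) to 4.82 times (Slc2a3) that in PBS 2. Hk3 stood at 0.62 times, Ankrd37 at 1.71, Aldoc at 1.77 and Eno2 at 2.31 times. While 28 members were higher in PBS 1 and 9 in PBS 2, no share over all genes is at hand. That split therefore cannot be read as particular to these genes. With 1 library of each source, a difference between sources cannot be told apart from one between libraries.

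Other genes of the pathway came from lists that were chosen with earlier results known. Among 17 tested isoforms and regulators of glycolysis outside the members, 2 rose and 5 fell (median log2 change -0.36). Over all tested genes 23.7% were called higher and 24.7% lower, so such counts describe a list and are no result about it. Those with the largest changes are forms of skeletal muscle and fat: the muscle mutase Pgam2 (-3.29), the muscle enolase Eno3 (-2.53) and the insulin-responsive transporter Slc2a4 (-2.52) fell, and Slc2a6, a lysosomal transporter of leukocytes, rose (1.91). Pgam2 stood at 1.98 and 1.14 TPM in AdMSC 1 and SyMSC 1 and 35.7 and 15.7 TPM in PBS 1 and PBS 2, and Eno3 at 8.17 and 9.63 against 99.75 and 31.2 TPM. Limma no longer called Eno3 without AdMSC 1 (adjusted p = 0.294) or SyMSC 1 (0.273), Pgam2 without SyMSC 1 (0.057), or Slc2a6 without PBS 1 (0.0789) or PBS 2 (0.111). The summed skeletal muscle markers were lower in the same libraries, as given above.

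Of 12 tested genes that pass pyruvate into the mitochondria or control that step, 1 rose and 3 fell (median log2 change -0.03). For each list of this paragraph, the share over all tested genes was 23.7% higher and 24.7% lower. Pdk4 (-2.61) and Pdk2 (-1.08), kinases that like Pdk1 inhibit pyruvate dehydrogenase, fell, as did the phosphatase gene Pdp1 (-0.87), which activates it, and the core subunit gene Dlat rose (0.75). Pdk4 stood at 1.34 and 1.28 TPM after injection and 11.1 and 15.3 TPM with PBS (limma adjusted p = 0.000485), so that Pdk1 and Pdk4 changed in opposite directions. In the pentose phosphate pathway, which branches from glucose 6-phosphate and supplies NADPH, 6 of 8 genes rose and none fell (median log2 change 0.86). The largest changes were those of Taldo1 (1.55), Pgd (1.33), H6pd (0.99) and Tkt (0.91). Of 11 tested genes of glycogen metabolism and gluconeogenesis, 3 rose and 1 fell (median log2 change -0.01). Glycogen synthase Gys1 (1.58), the leukocyte and liver glycogen phosphorylase Pygl (1.37) and the branching enzyme Gbe1 (0.99) rose, while the muscle phosphorylase Pygm fell (-2.99); limma no longer called Pygm without AdMSC 1 (adjusted p = 0.238) or SyMSC 1 (0.271).

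Among partners and regulators of the hypoxia factors, 4 of 10 tested rose and 1 fell (median log2 change 0.03). The called share of this list and of the further targets below lay near the 48.4% of all tested genes. Of all tested genes, 23.7% were higher and 24.7% lower. The fall was that of Epas1, which encodes HIF-2 alpha and is abundant in endothelium: it stood at 30.1 and 32.1 TPM after injection and 63.6 and 68.9 TPM in the PBS libraries (limma log2 change -1.07 ± 0.12 SE, adjusted p = 0.00139). Epas1 and Hif1a therefore moved in opposite directions, and the endothelial markers were lower in the same libraries as Epas1. The coactivator gene Ep300 (0.83), the partner gene Arnt (0.70) and Hif1an (0.59), an asparagine hydroxylase that restrains the factors, rose; limma no longer called Hif1an without any 1 of the libraries (adjusted p between 0.0572 and 0.113). Of 37 tested further targets of the hypoxia factors, 15 rose, 4 fell and 18 did not pass (median log2 change 0.37). Hmox1, heme oxygenase 1, went from 77.2 and 85.9 TPM with PBS to 1100.05 and 809 TPM after injection (3.52), and Angptl4 (3.23), a lipase inhibitor, the adenylate kinase gene Ak4 (2.79) and the oxidase gene Ero1a (2.54) followed. Limma no longer called Angptl4 without AdMSC 1 (adjusted p = 0.074) or SyMSC 1 (0.101).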

How the data were processed

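The authors deposited TPM, as the file header says, scaled to the same sum in each library over rat genes. Per the submitters' processing notes, the tool HISAT2 2.0.4 and the build Rnor_6.0 are named, without their roles. How reads were counted, on which annotation, whether by strand, and whether human reads were set apart is not given in the sources used here. Genes that overlap on opposite strands may therefore share reads, and values of the injected libraries may include reads of the human cells at conserved genes.

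Members were matched by gene symbol. Injected libraries (n = 2) were fitted against PBS libraries (n = 2) on log2(TPM + 1) with limma 3.58.1 (R 4.3.3; moderated variances, trend and robust), which left 2 residual degrees of freedom. Genes reaching 1 TPM in 2 or more libraries entered, and calls were made at an adjusted p under 0.05. The members, lists and tests were chosen with earlier results of these data known. All members are named. Of each further pathway list up to 4 genes are named, the called ones with the largest change, and of each marker list the 2 most abundant. Outside this rule, further neutrophil markers, Adgre1, Myh2, Myh7 and the fibroblast markers Prg4, Clic5 and Has2 are named. That choice was made with their values known. The result of 1 marker list is not reported here. The procedure was tested on simulated data with independent libraries and few changed genes. Here 48.4% of tested genes were called and separate animals are not shown, so the simulation does not vouch for these calls. Alternatives were other scalings, filters, pseudocounts, ratios and comparators, the title word as a block, and leaving out each library. No sample column was left unused.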

Additional observations from a re-analysis of the deposited data

Results flagged for a closer look

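For 3 members the title pairs moved in opposite directions, with 1 library a side, so that the difference was not tested. The log2 ratio of TPM + 1 was -0.90 for AdMSC 1 against PBS 1 and 0.13 for SyMSC 1 against PBS 2 in the case of Slc2a3, whose level was under 1 TPM in every library but PBS 1. It was -0.03 and 0.74 for Aldoc, where PBS 2 alone was low. It was -0.17 and 0.09 for Eno2, whose level differed more between the title words than between injected and PBS libraries.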

How the results depend on the processing

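The number of members called by limma was 31, between 28 and 32 under the other scalings, filters and pseudocount, and between 27 and 30 when 1 library was left out; 3 of them were lower each time. Over all genes 6476 were called, and between 4286 and 5234 with 1 library left out, fewest without PBS 2. A library left alone on its side was assumed to vary as the other side did. With the title word as a replicate block, limma called 30 members and 6590 genes and ended the call of Mxi1 alone among the members; the deviations of AdMSC 1 and PBS 1 correlated at 0.117, and nothing in the labels shows that the title word marks a shared animal. Of 359 comparisons of a member with an alternative, 337 kept direction and side of the threshold. The direction turned for Eno2 with RLE scaling (0.0065) and with 1 library left out, which gave -0.62 to 0.55 for Eno2 and -0.0219 to 0.73 for Aldoc; the cause was not tested. With the PBS libraries exchanged, 26 members passed the 2-fold mark for AdMSC 1 (23 with PBS 1) and 23 for SyMSC 1 (27 with PBS 2). At a ratio of 1.5 the members that differed between SyMSC 1 and AdMSC 1 were 3 in place of 1. RLE and upper-quartile scaling moved the median log2 change of all genes to 0.04 and -0.05. Read depth is unknown, so the precision of low values such as those of Slc2a3 and Car9 is not known.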
